A study of Mus musculus with 14 samples.

Results

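Injured spinal cords labelled as lacking Csf1 in astrocytes were compared with injured control cords across all measured genes. Every library carrying one of the labels AstroCSF1KO SCI and control SCI was taken, which gave 8 of the 14 libraries of the series, 4 in each group. The mice in both groups had a spinal cord injury (SCI), and tissue around the lesion was taken 7 days later; the AstroCSF1KO mice carried a deletion of Csf1 in astrocytes and the controls did not. The labels used here do not give the Cre driver, the deleted exons, the strain, the age or the sex, and they do not say what allele or transgene the controls carry. The other 6 libraries come from uninjured cords of the same 2 genotypes, 3 each, and are used only where stated. RNA was selected by its poly(A) tail, made into libraries that do not keep the strand, and sequenced from both ends. The deposited values are named FPKM, fragments counted per length of gene and scaled for each library. The scaling followed median-of-ratios size factors, computed from ratios of reads between libraries gene by gene, and not the total of reads. Of 56748 genes in the table, the 15155 with at least 1 FPKM in at least 3 of the 14 libraries were analysed, on the scale log2(FPKM + 1), and each log2 difference below is labelled knockout minus control on that scale.

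CSF1 is a secreted and membrane-bound growth factor that binds the receptor CSF1R, a tyrosine kinase carried by microglia and macrophages, and signals for their survival and division. IL34 is the other ligand of this receptor. In the injured cord, microglia and astrocytes border the lesion, blood-borne macrophages and fibroblasts fill its core, and damaged neurons switch on a growth programme. Interferon beta, which stands beside CSF1 in the title of the series, signals through its receptor to transcription factors that bind a DNA element in the promoters of interferon-stimulated genes.

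The 8 libraries were not alike. Between 15928463 and 21969581 reads per library could be recovered from the FPKM values. Control SCI replicates 1 and 4 stood apart: their profiles correlated with those of the other 6 libraries at 0.74 to 0.90 (Pearson's r across genes), against 0.97 to 0.99 among those 6. In these replicates Malat1, a nuclear long noncoding RNA, stood at 348 and 465 FPKM against 35.1 to 225 in the other 6. The ribosomal protein gene Rplp1 stood at 230 and 61.2 FPKM against 785 to 944. Those 6 were not alike in Malat1. It was at 137 to 225 FPKM in labelled-knockout replicates 2 to 4. In labelled-knockout replicate 1 and control replicates 2 and 3 it was at 35.1 to 47.1 FPKM. Labelled-knockout replicates 2, 3 and 4 were rich in rRNA, which took 3.99, 3.38 and 2.89% of their reads and 0.310 to 0.746% of those of the other 5. The median SD over genes was 0.44 in log2 units among the 4 control libraries, 0.08 between control replicates 2 and 3, and 0.12 among the 4 labelled-knockout libraries. Counts over all genes and the medians of gene lists are therefore given both for all 8 libraries and for the 6 that remain without control replicates 1 and 4. The labels do not say that the libraries are separate animals, so a p-value measures the spread between these samples.

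What was dissected with the cord also differed between libraries. Xist, which is transcribed from the inactive X chromosome of females, was at or above 20.5 FPKM in labelled-knockout replicates 3 and 4 and control replicate 4, and at most 0.210 FPKM in the other 5, where the Y-linked gene Ddx3y was read at 11.8 to 23.6 FPKM. Without control replicates 1 and 4 both remaining controls are thus male, and labelled-knockout replicates 3 and 4 are female. Avil, a marker of sensory neurons of the dorsal root ganglia, reached 8.68 FPKM in labelled-knockout replicate 4 and 9.16 FPKM in control replicate 2, and 0.215 to 1.79 FPKM elsewhere. Acta1, the actin of skeletal muscle, stood at 150 FPKM in labelled-knockout replicate 1 and at 0.492 to 15.0 FPKM in the other 7. Defining genes of the cord were present in all 8 libraries, with Snap25 of neurons at 181 to 455 FPKM, Aqp4 of astrocytes at 177 to 472 FPKM, Mbp of oligodendrocytes at 341 to 1836 FPKM and the thoracic position gene Hoxc9 at 3.35 to 10.1 FPKM. The T cell gene Cd3e had at most 9 reads.

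**Figure D1:**
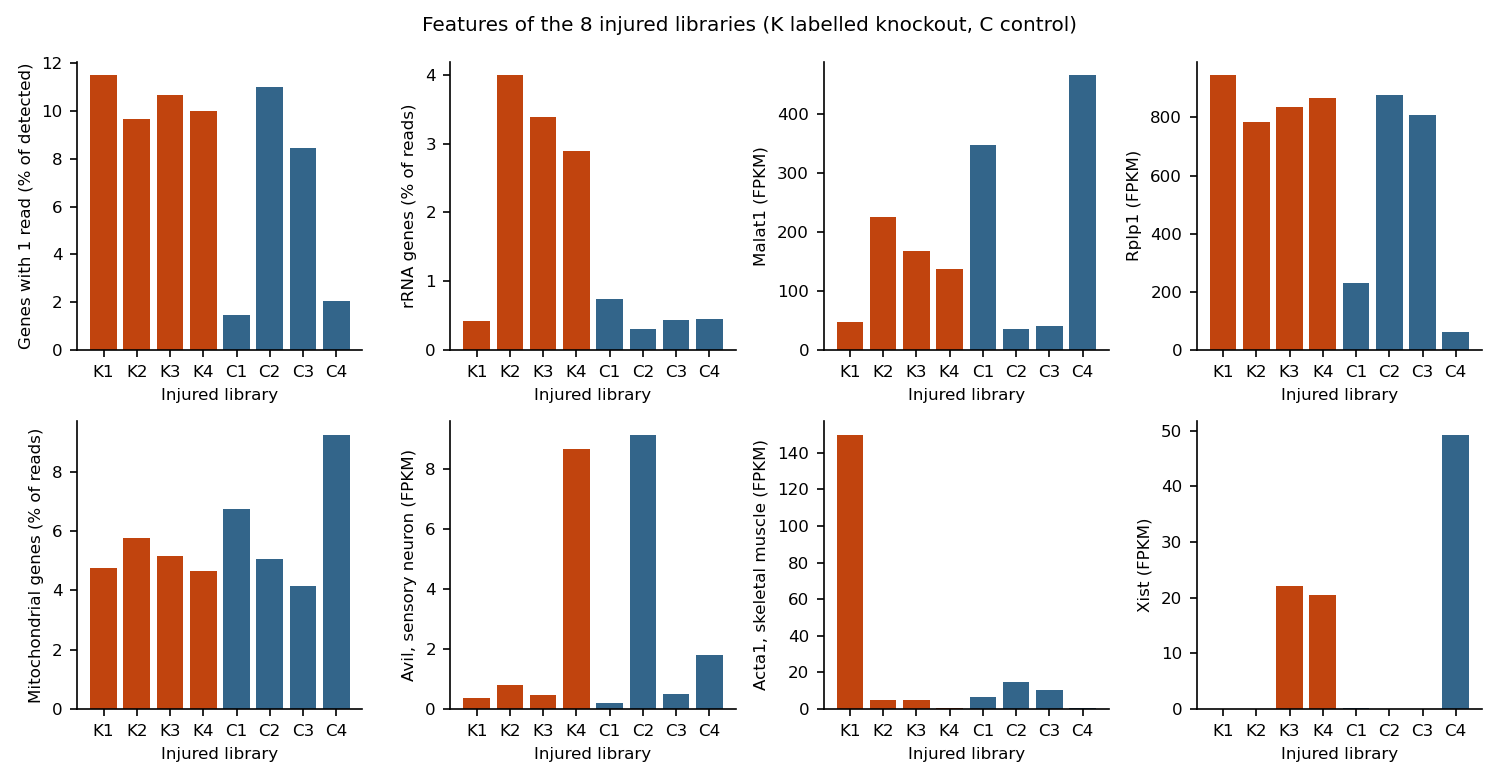
Features of the 8 injured libraries, as bars from 0: the share of detected genes with exactly 1 read, the share of reads on rRNA genes, the share of reads on mitochondrially encoded genes, and FPKM of Malat1, Rplp1, Avil, Acta1 and Xist. K1 to K4 are the labelled-knockout replicates and C1 to C4 the controls; C1 and C4 differ from the other 6 in Malat1, Rplp1 and genes with 1 read, K2 to K4 are rich in rRNA reads, and K1 holds the most Acta1 (150 FPKM).

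No gene passed the test in either comparison. With all 8 libraries, limma with Benjamini-Hochberg adjustment called 0 of 15155 genes at an adjusted p under 0.05 (0%), and the smallest adjusted p was 0.477. An unadjusted p under 0.05 was reached by 497 genes (3.28%), 355 of them higher (2.34%) and 142 lower (0.937%) in labelled knockout. The 4 labelled-knockout libraries lay above all 4 controls in 324 genes (2.14%) and below them all in 153 (1.01%), and the difference was above 0 in 54% of genes and below 0 in 46%. Without control replicates 1 and 4, limma again called 0 genes (0%), with a smallest adjusted p of 0.113. An unadjusted p under 0.05 was then reached by 923 genes (6.09%), 453 higher (2.99%) and 470 lower (3.1%), and 50.8% of genes lay below 0 and 49.2% above. The voom test on recovered reads also called 0 genes in both, with 409 and 1117 genes at an unadjusted p under 0.05.

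The 6-library comparison bounds the size of most differences. The 95% interval of the log2 difference lay within 1 in either direction for 94.0% of genes, against 63.6% with 8 libraries. An estimated difference of more than 1 was found for 103 genes (0.68%) with 6 libraries and for 494 genes (3.26%) with 8. Adding 1 to each FPKM narrows the differences of genes with low values. With 0.1 added instead, the 6-library interval lay within 1 for 87.1% of genes, and 431 genes (2.84%) exceeded 1. With voom on recovered reads these were 86.5% and 422 genes (2.79%). In a fit that gives each library a weight from its own spread, control replicates 1 and 4 received 0.0943 and 0.0431 and the other 6 libraries 1.41 to 3.57. That fit called 4 genes (0.0264%): the neuronal gene Sprr1a and the pseudogene Rpl30-ps10 were higher in labelled knockout, and the small RNA genes U4 and Mir32 were lower.

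Csf1, the gene named in the labels, was not lower in the injured cords labelled knockout. Csf1 (chromosome 3, 107648364 to 107667785 of the mm39 build) stood at 19.9, 16.4, 18.6 and 19.2 FPKM in labelled-knockout replicates 1 to 4. It stood at 7.95, 17.6, 18.3 and 10.4 FPKM in control replicates 1 to 4. The low controls are the replicates that stand apart, and the other controls lie within the range of the labelled-knockout libraries. With 8 libraries the log2 difference of Csf1 was 0.49 ± 0.26 (SE, limma adjusted p = 0.477), and an exact two-sided permutation test gave p = 0.143, in a design that cannot go below 0.0286. With 6 libraries the difference of Csf1 was 0.04, with a 95% interval of -0.17 to 0.24 and an exact permutation p = 0.733, where 0.0667 is the lowest p possible. The FPKM value counts all cells and all exons, so neither the loss of Csf1 from astrocytes nor its failure can be read from these levels, and the libraries are called labelled knockout for that reason.

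The receptor and the second ligand gave the same picture of low values in control replicates 1 and 4. Csf1r, the receptor, stood at 58.4, 60.7, 59.5 and 60.9 FPKM in labelled knockout and at 36.8, 57.4, 63.0 and 30.2 FPKM in controls. Its 6-library difference was -0.01, with a 95% interval of -0.16 to 0.15, so at this spread a difference of more than 0.16 in either direction lies outside the interval. Il34, made mainly by neurons in the central nervous system, stood at 11.5, 9.43, 7.22 and 8.43 FPKM in labelled knockout and at 3.27, 12.1, 11.4 and 1.13 FPKM in controls. Its difference was 0.69 ± 0.56 (SE) with 8 libraries and -0.35 ± 0.16 (SE) with 6, and neither was called by limma (adjusted p = 0.484 and 0.714). The direction of Il34 thus turned with the removal of the 2 controls. Of the list of 10 CSF1 family ligands, receptors and signalling partners, 8 were kept, 0 were called, and all 8 were above 0 with 8 libraries (median 0.63) and 6 of 8 with 6 libraries (median 0.07), where the medians over all genes were 0.05 and 0.00. Tyrobp, the adaptor of microglial receptors, and Csf2ra, a receptor chain for another colony-stimulating factor, were at 0.25 and 0.20 with 6 libraries. The ligand genes Csf2 and Csf3 had at most 1 read in any injured library.

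**Figure D2:**
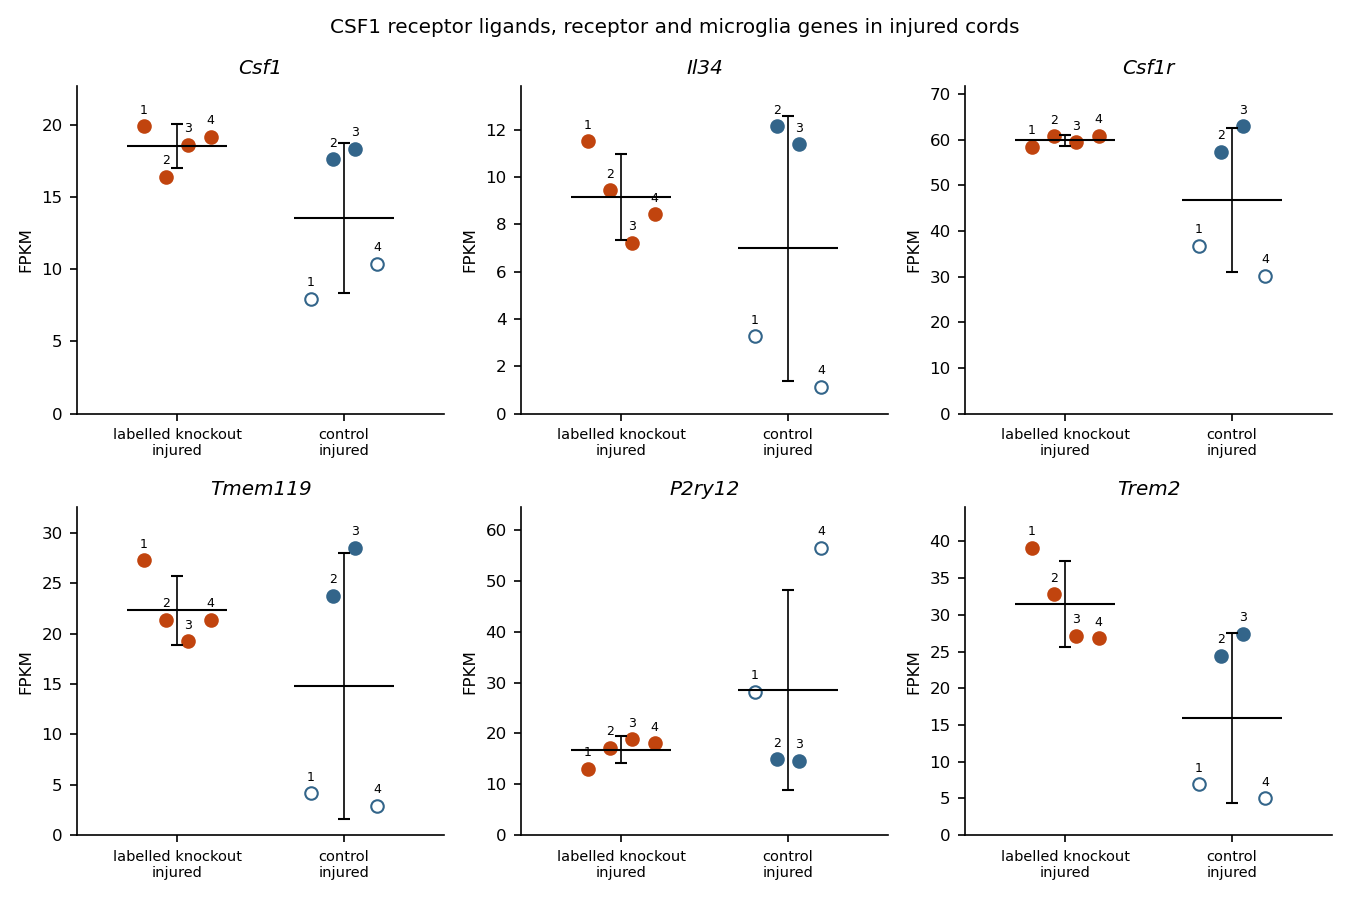
FPKM of Csf1, Il34, Csf1r, Tmem119, P2ry12 and Trem2 in the injured libraries; each point is a library with its replicate number, open points are control replicates 1 and 4, and lines and bars are the mean and SD of 4 libraries. For Csf1, Csf1r, Il34, Tmem119 and Trem2 the open points lie below every other point, and for P2ry12 they lie above.

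Homeostatic microglia genes passed no test. Of 17 genes of surveying, homeostatic microglia all were kept, 0 were called, and 11 were above 0 in each comparison (median 0.32 with 8 libraries and 0.10 with 6). Tmem119, a membrane protein that marks microglia, stood at 27.3, 21.4, 19.3 and 21.4 FPKM in labelled knockout and at 4.15, 23.8, 28.5 and 2.92 FPKM in controls. P2ry12, the receptor with which microglia sense ADP, stood at 13, 17.2, 18.9 and 18.1 FPKM in labelled knockout and at 28.2, 14.9, 14.6 and 56.5 FPKM in controls. Both markers were extreme in control replicates 1 and 4, in opposite directions, and the groups overlapped. Their 6-library differences were -0.23 for Tmem119 and 0.17 for P2ry12, with 95% intervals of -0.57 to 0.11 and -0.17 to 0.51. Because the tissue was measured in bulk, fewer cells of a type and less RNA per cell cannot be told apart.

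Genes of damage-associated microglia, the phagocytic state that depends on TREM2, were somewhat higher in labelled knockout by their median and passed no test. Of 24 genes all were kept, 20 were above 0 in each comparison, 0 were called, and the median was 0.44 with 8 libraries and 0.25 with 6. With 6 libraries 2 of the 24 (Clec7a and Fabp5) reached an unadjusted p under 0.05, both higher, against 2.99% of all genes, and with 8 libraries 8 did, all higher, against 2.34%. Trem2 itself, a receptor for lipids, stood at 39.1, 32.8, 27.1 and 26.8 FPKM in labelled knockout and at 6.88, 24.4, 27.4 and 5 FPKM in controls. Gpnmb, a glycoprotein of lipid-laden phagocytes, stood at 220, 134, 84.8 and 68.1 FPKM in labelled knockout and at 87.1, 96.5, 82.5 and 83.7 FPKM in controls. Labelled-knockout replicates 1 and 2 were the highest for both genes, and replicates 3 and 4 lay at or below the higher of control replicates 2 and 3. Apoe, the main lipid carrier of the brain, and Ctsd, a lysosomal protease, were the most abundant members, at 0.02 and 0.33 with 6 libraries. Spp1, the gene of osteopontin, stood at 1210, 660, 457 and 460 FPKM in labelled knockout and at 1140, 613, 356 and 1064 FPKM in controls.

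These replicates differed over the whole list. The median difference of the 24 genes from the mean of control replicates 2 and 3 was 0.24 and 0.30 in labelled-knockout replicates 1 and 2, in which Ddx3y was read, and 0.06 in each of replicates 3 and 4, in which Xist was read. Among males only, with labelled-knockout replicates 1 and 2 against control replicates 2 and 3, 21 of the 24 were above 0 (median 0.25). With sex as a term in the fit limma called 0 genes; the part of sex in the values of the list was not tested. Of 16 pan-macrophage genes, 13 were above 0 with 8 libraries (median 0.31) and 15 with 6 (median 0.15), among them Ctss, a protease of phagocytes, at 0.21 and the complement gene C1qb at 0.21. Aif1, which encodes IBA1, stood at 12.7, 12.3, 12.4 and 13.7 FPKM in labelled knockout and at 10.8, 12.1, 9.77 and 20.4 FPKM in controls. Of 26 lysosome genes 20 were above 0 with 8 libraries (median 0.26) and 18 with 6 (median 0.12), with Psap, the saposin precursor, at 0.05. With 6 libraries 4 of them reached an unadjusted p under 0.05 higher and 1 lower, against 2.99% and 3.1% of all genes, and with 8 libraries 4 higher and 0 lower, against 2.34% and 0.937%.

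Type I interferon-stimulated genes were lower in labelled knockout by their median, with no gene called. Ifnb1, which encodes interferon beta, was without a read (0 in all 14 libraries; by counting error alone a library could still hold 3), so the response genes are shown in its place. The promoters of Isg15 and Ifit3 are printed because both genes are induced through the interferon-stimulated response element. The windows run from 250 bases before to 50 after the annotated start, from RefSeq on GRCm38.p6, at chr4:156200769-156201068 on the minus strand and chr19:34583279-34583578 on the plus strand, and capitals mark matches to the core GAAANNGAA on either strand.
Isg15: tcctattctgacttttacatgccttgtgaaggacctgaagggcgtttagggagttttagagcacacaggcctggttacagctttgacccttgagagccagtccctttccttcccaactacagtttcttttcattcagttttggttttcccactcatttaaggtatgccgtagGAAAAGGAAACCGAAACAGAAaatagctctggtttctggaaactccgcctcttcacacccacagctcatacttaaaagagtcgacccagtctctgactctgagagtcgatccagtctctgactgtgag
Ifit3: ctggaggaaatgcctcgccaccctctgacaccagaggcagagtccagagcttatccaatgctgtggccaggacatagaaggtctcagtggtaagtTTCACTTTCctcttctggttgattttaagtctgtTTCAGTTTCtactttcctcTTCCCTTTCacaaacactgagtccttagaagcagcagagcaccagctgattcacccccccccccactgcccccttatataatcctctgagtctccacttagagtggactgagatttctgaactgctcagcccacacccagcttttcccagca
Each window held 3 matches, which in Isg15 overlap in 1 run. Over the list, 24 of the 33 kept genes had a window in the table, and the core was found in 16 of the 24, in 17 of their 27 windows (63.0%), against 8.56% of all 32851 windows. A match describes the letters of the window and not binding.

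Of 42 interferon-stimulated genes listed, 33 were kept. With 6 libraries all 33 lay below 0 (median -0.22, range -0.89 to -0.06), where 50.8% of all genes did. The controls of this comparison also differed from each other. Control replicate 2 lay below control replicate 3 in 29 of the 33, with a median difference of -0.27. With 6 libraries 9 of the 33 reached an unadjusted p under 0.05 and 0 were called; these 9 were all lower, against 3.1% of all genes. With 8 libraries 25 of 33 were below 0 (median -0.22), where 46% of all genes were, and 4 reached an unadjusted p under 0.05, all lower, against 0.937% of all genes. The genes of a list share their regulators and their libraries, so members are not replicates.

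Isg15, a ubiquitin-like protein, stood at 11.2, 5.46, 6.82 and 6.21 FPKM in labelled knockout and at 4.63, 12.8, 14.6 and 1.93 FPKM in controls. Its difference was -0.84 ± 0.24 (SE) with 6 libraries, where every labelled-knockout library lay below both controls, and 0.08 ± 0.52 (SE) with 8, so the sign of Isg15 rests on leaving out control replicates 1 and 4; limma called it in neither comparison (adjusted p = 0.714 and 0.919). Ifit3, which binds viral RNA with its IFIT partners, stood at 19.6, 13.8, 12.9 and 15.2 FPKM in labelled knockout and at 11.8, 20.0, 28.7 and 24.8 FPKM in controls. Its difference was -0.62 with 6 libraries and -0.39 with 8. Oasl2, an antiviral oligoadenylate synthetase-like gene, stood at 2.93, 2.47, 3.08 and 2.81 FPKM in labelled knockout and at 3.05, 4.20, 4.34 and 6.91 FPKM in controls, and was at -0.47 and -0.52. For Oasl2 the groups overlap only through labelled-knockout replicate 3 and control replicate 1. Ifitm3 and Ifi27, the most abundant members, were at -0.22 and -0.26 with 6 libraries and at 0.39 and 0.60 with 8. Cxcl10, a chemokine that draws in T cells, stood at 3.00, 1.84, 3.43 and 2.80 FPKM in labelled knockout and at 3.97, 2.10, 4.92 and 3.91 FPKM in controls, and its groups overlapped.

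Within the labelled-knockout group, the lower values were those of the rRNA-rich libraries. The list score, the mean log2(FPKM + 1) of the 33 genes, was 2.60 in labelled-knockout replicate 1, 2.30, 2.34 and 2.32 in replicates 2, 3 and 4, and 2.28, 2.58, 2.80 and 2.53 in control replicates 1 to 4. Replicate 1 thus scored above control replicate 2, and replicates 2 to 4 scored below every control but replicate 1. Against control replicates 2 and 3, 28, 30 and 29 of the 33 genes were below both in replicates 2, 3 and 4, and 12 were in replicate 1. With replicate 1 as the only labelled-knockout library the median was -0.06, with 26 of 33 below 0. Among males only it was -0.20, with 30 of 33 below 0. The part of rRNA content in these values was not tested. Genes induced by interferon gamma (14 kept, median -0.17 with 6 libraries), of MHC class I (12 kept, median -0.20) and of interferon sensing (19 kept, median -0.09) also lay mostly below 0 with 6 libraries, in 12, 11 and 14 members; with 8 libraries the medians were -0.06, 0.33 and 0.10.

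**Figure D3:**
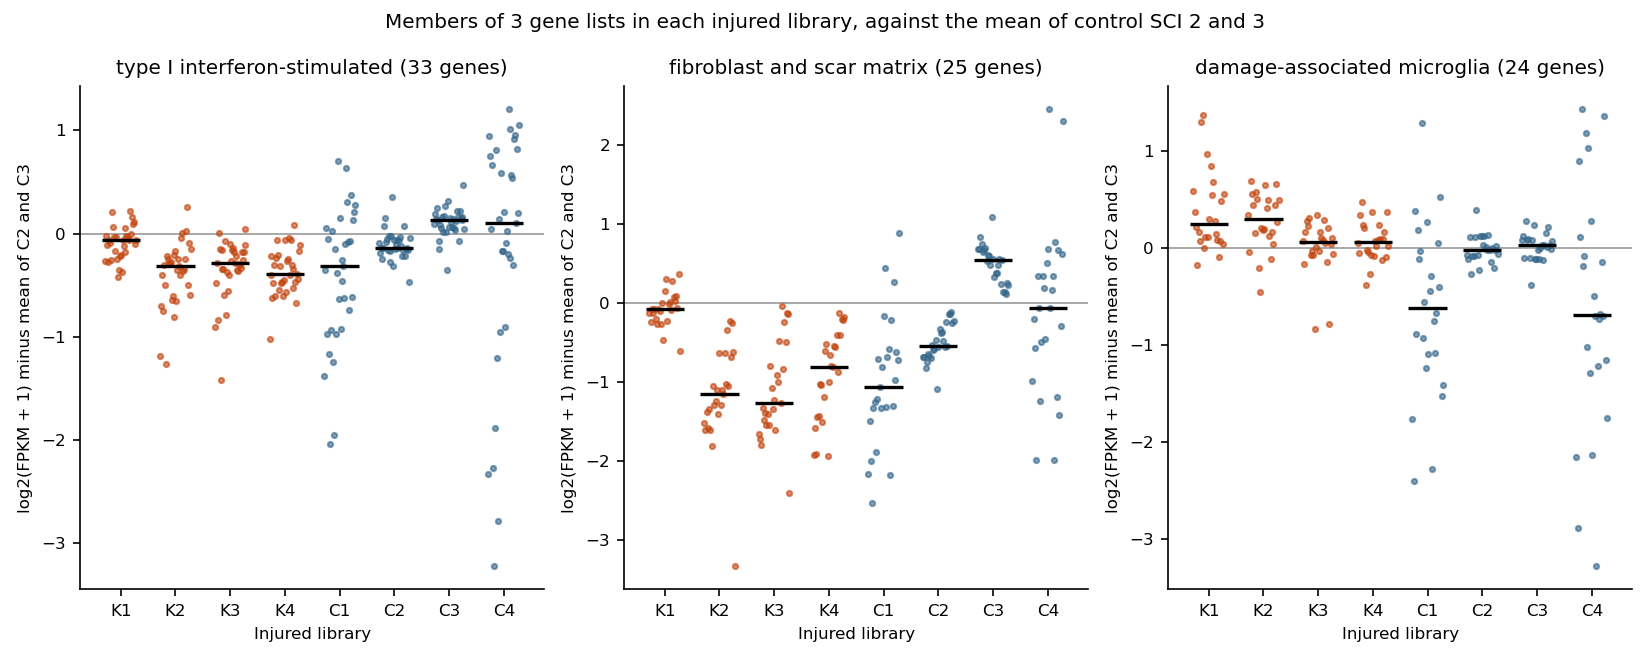
Each point is a gene of a list in an injured library, as log2(FPKM + 1) minus the mean of control replicates 2 and 3; bars are medians, K1 to K4 are labelled knockout and C1 to C4 control. Interferon-stimulated genes lie near 0 in K1 (median -0.06) and lower in K2 to K4 (-0.32, -0.29 and -0.39), fibroblast genes near 0 in K1 (-0.07) and lower in K2 to K4, and both C1 and C4 scatter widely.

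Fibroblast and scar matrix genes had the lowest 6-library median of the lists with more than 6 kept genes, with no gene called. With 6 libraries all 25 kept genes lay below 0 (median -0.76), where 50.8% of all genes did, and 2 reached an unadjusted p under 0.05, both lower, against 3.1% of all genes. With 8 libraries 21 lay below 0 (median -0.51), where 46% of all genes did, and 4 reached an unadjusted p under 0.05, all lower, against 0.937%. Col1a1, the main fibrillar collagen chain, stood at 130, 48.9, 44.3 and 36.6 FPKM in labelled knockout and at 30.9, 88.1, 228 and 71.0 FPKM in controls. Ogn, a small proteoglycan of meningeal fibroblasts, stood at 14.9, 1.43, 3.63 and 20.6 FPKM in labelled knockout and at 44.1, 19.9, 27.6 and 119 FPKM in controls. The control groups themselves spanned a wide range, and labelled-knockout replicate 1 lay among the controls for Col1a1. The list score was 4.32, 3.22, 3.28 and 3.47 in labelled knockout and 3.39, 3.89, 4.89 and 4.33 in controls, so the groups overlapped. With replicate 1 as the only labelled-knockout library the median was -0.07 with 6 libraries, and with all 4 controls it was 0.16.

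Lists of other tissues at the edge of the cord also had medians below 0, and they ordered the libraries alike only in part. The border-associated macrophage score was 2.30, 1.49, 1.36 and 1.74 in labelled-knockout replicates 1 to 4, with replicate 1 highest as for fibroblast genes. The pericyte and smooth muscle score was 3.21, 2.45, 2.49 and 2.49 there. Pericyte and smooth muscle genes had a median of -0.22 with 6 libraries (10 of 11 below 0) and 0.08 with 8 (5 of 11). By the median of members, control replicate 3 minus control replicate 2 was 1.10 for fibroblast genes and -0.47 for Schwann cell genes. For haemoglobin and erythroid genes it was -2.89. Labelled-knockout replicate 4 was at -0.81, -0.06 and -1.87 for these lists, against another reference, the mean of control replicates 2 and 3. Schwann cell genes had a median of -0.38 with 8 libraries (8 of 12 below 0) and -0.29 with 6 (10 of 12), and their score was 1.91 and 2.03 in labelled-knockout replicates 2 and 3 against 2.62 to 3.49 in the other 6. Border-associated macrophage genes, which mark macrophages of the meninges and vessels, had a median of -0.24 with 8 libraries (6 of 8 below 0) and -0.41 with 6 (5 of 8), and Mrc1, the mannose receptor, stood at 1.82, 0.471, 0.381 and 1.49 FPKM in labelled knockout and at 2 to 5.66 FPKM in controls. For Mrc1 every labelled-knockout library lay below every control, as for 1.01% of all genes. It was not called (-0.80 ± 0.32 SE with 6 libraries, limma adjusted p = 0.714). Stab1 and Pf4, the most abundant members of that list, were at 0.02 and 0.27. Haemoglobin and erythroid genes lay below 0 in 6 of 6 in both comparisons (median -1.46 with 6 libraries and -0.93 with 8). Hba-a1 stood at 312, 182, 121 and 135 FPKM in labelled knockout and at 738, 1918, 198 and 58.7 FPKM in controls, so the controls alone spanned 58.7 to 1918 FPKM. Reads of Hba-a1 and its near-identical copy may have been assigned to either of them. How much blood, nerve root and meninges each sample held was not measured apart from these genes, and its part in the interferon and fibroblast values was not tested.

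Some of the genes that axotomized neurons switch on were higher in every labelled-knockout library than in every control, and none was called in the 8-library or 6-library comparison. Sprr1a, a cornified-envelope protein that promotes axon growth in injured mouse sensory neurons, stood at 97.2, 107, 106 and 92.8 FPKM in labelled knockout and at 28.6, 56.3, 58.4 and 32.4 FPKM in controls. Every labelled-knockout library was above every control, and the gap between the groups was larger than the range within the labelled-knockout group. The mean was 101 ± 6.78 FPKM (SD, n = 4) against 57.3 ± 1.53 FPKM (SD, n = 2) in control replicates 2 and 3. The log2 difference of Sprr1a was 1.25 ± 0.25 (SE, limma adjusted p = 0.477) with 8 libraries and 0.80 ± 0.08 (SE, adjusted p = 0.131) with 6, so neither call was made. In the weighted fit it was 0.82 ± 0.09 (SE, adjusted p = 0.0438) and was called. With 6 libraries it was 0.75 with labelled-knockout replicate 1, which is not rich in rRNA, as the only library of its group, and 0.82 among males only, a split made after the data were seen. The sensory neuron gene Avil stood at 0.378 to 0.794 FPKM in labelled-knockout replicates 1 to 3. It was high in labelled-knockout replicate 4 and, at 9.16 FPKM, in control replicate 2. The part of rRNA content, sex and carried-over ganglion tissue in the difference of Sprr1a was not tested. Uninjured libraries of both genotypes had at most 0.786 FPKM of Sprr1a.

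The promoter of Sprr1a is shown because the injury factors JUN and ATF3 act through sites of this kind; it lies at chr3:92485832-92486131 of GRCm38.p6 on the minus strand in RefSeq, and capitals mark the AP-1 letters TGANTCA, chosen after the values were seen.
Sprr1a: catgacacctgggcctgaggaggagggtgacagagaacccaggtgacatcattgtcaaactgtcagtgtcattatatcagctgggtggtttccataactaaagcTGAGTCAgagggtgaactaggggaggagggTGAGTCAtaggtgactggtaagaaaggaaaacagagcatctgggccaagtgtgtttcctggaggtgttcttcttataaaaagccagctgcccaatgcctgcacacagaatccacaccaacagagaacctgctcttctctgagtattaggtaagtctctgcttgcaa
The letters occur 2 times in this window. They are in 2 of the 14 windows of the list below (14.3%) in 8 of the 27 windows of the kept interferon-stimulated genes (29.6%) and in 7.81% of all windows, on either strand. The core GAAANNGAA was found in 0 of those 14 windows.

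A further 3 members of this gene set had no overlap between the groups. Atf3, a stress-induced transcription factor, stood at 17.8, 16.5, 16.1 and 15.9 FPKM in labelled knockout and at 10.8, 13.1, 12.3 and 12.4 FPKM in controls. Npy, the gene of neuropeptide Y, stood at 31.3, 36.2, 33.4 and 36.7 FPKM and at 18.9, 29.4, 22.1 and 18.6 FPKM. Gal, the gene of the neuropeptide galanin, stood at 26.1, 18.0, 17.0 and 20.8 FPKM and at 8.41, 15.8, 12.4 and 3.44 FPKM. All 3 were therefore higher in each labelled-knockout library, with the gap smallest for Gal and Npy at control replicate 2. The 6-library differences were 0.36 ± 0.07 for Atf3, 0.41 ± 0.12 for Npy and 0.50 ± 0.18 for Gal (SE), each with a limma adjusted p = 0.714. Npy and Gal were also higher in uninjured cords labelled knockout by 0.56 and 1.45, while Atf3 was at -0.11 there. Those differences include control uninjured replicate 1, which stands apart, with Malat1 at 443 FPKM and Rplp1 at 79.5 FPKM. They were not fitted without it. Of the 18 genes of this regeneration-associated list all were kept, 13 were above 0 with 8 libraries (median 0.32) and 15 with 6 (median 0.13), and 4 lay above every control, where 2.14% of all genes did. Gap43 and Basp1, growth cone proteins and the most abundant members, were at 0.10 and -0.11.

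**Figure D4:**
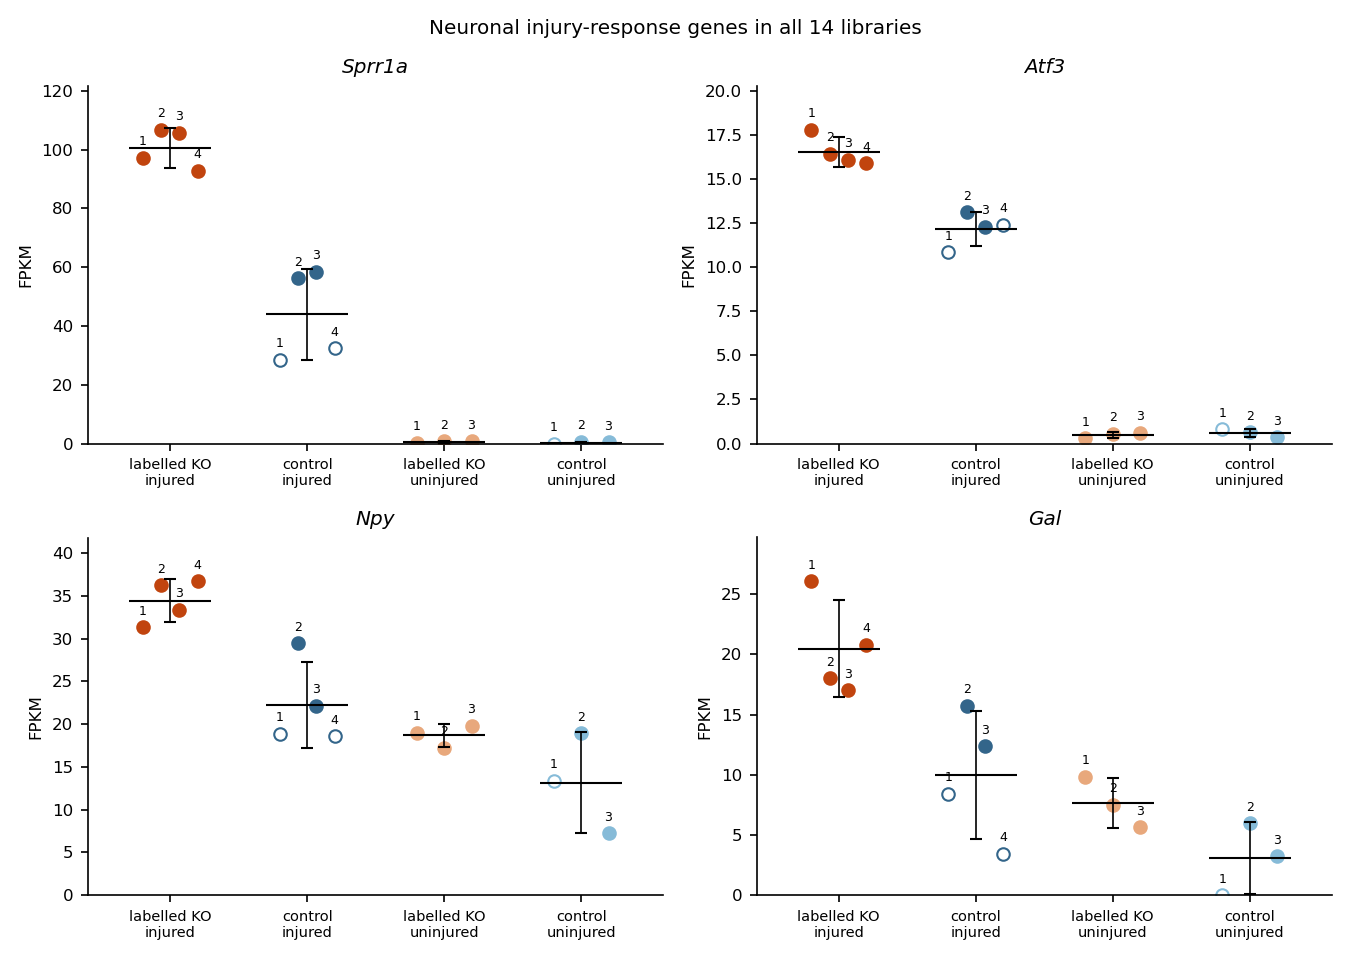
FPKM of Sprr1a, Atf3, Npy and Gal in all 14 libraries, with replicate numbers, the mean and the SD of each group; open points are the 3 control libraries that stand apart. In injured cords each labelled-knockout library lies above every control for all 4 genes, with Sprr1a at 92.8 to 107 FPKM against 28.6 to 58.4 FPKM, and in uninjured cords Sprr1a and Atf3 stay under 1 FPKM.

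Genes of astrocytes, the cells in which Csf1 was targeted, had medians near 0 with 6 libraries. Of 34 kept reactive astrocyte genes 17 lay above and 17 below 0 with 6 libraries (median 0.00), and of 20 astrocyte identity genes 10 and 10 (median 0.00); 0 were called. With 8 libraries 21 and 12 of them lay above 0, with a median of 0.11 in both lists. Gfap, the filament protein of reactive astrocytes, stood at 1689, 1807, 2197 and 1897 FPKM in labelled knockout and at 1057, 1770, 1782 and 1023 FPKM in controls. Its 6-library difference was 0.09, with a 95% interval of -0.20 to 0.38. Serpina3n, a secreted protease inhibitor of reactive astrocytes, stood at 512, 370, 413 and 409 FPKM in labelled knockout and at 199, 305, 372 and 214 FPKM in controls, with a difference of 0.33 ± 0.15 (SE) with 6 libraries. The groups overlapped for both genes only through the lowest labelled-knockout library. S100b and Aldoc, the most abundant identity genes, were not among the genes at an unadjusted p under 0.05.

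Medians of neuronal and glial lists were nearer to 0 with 6 libraries than with 8. The median with 6 libraries was -0.02 for 26 neuron and synapse genes, 0.09 for 14 motor neuron and cholinergic genes, 0.04 for 14 oligodendrocyte precursor genes and 0.00 for 24 axon guidance and Nogo genes. With 8 libraries these medians were -0.10, 0.31, 0.14 and 0.05. Central myelin genes had 16 of 17 above 0 with 6 libraries (median 0.17) and 10 of 17 with 8 (median 0.47), where 3 reached an unadjusted p under 0.05, all higher, against 2.34% of all genes. Mbp, myelin basic protein, was at -0.03 with 6 libraries. Mbp stood at 1552 to 1836 FPKM in labelled knockout and at 526, 1768, 1723 and 341 FPKM in controls, so that its low values were again those of control replicates 1 and 4. Of 15 cervical Hox genes, which record position along the cord, 13 were below 0 with 6 libraries (median -0.19), with 4 at an unadjusted p under 0.05, all lower, against 3.1% of all genes, and 12 were above 0 with 8 (median 0.29). Ribosomal protein genes were above 0 in 24 of 30 with 8 libraries (median 0.52) and in 22 of 30 with 6 (median 0.06).

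Among genes chosen after their values were seen, several stood apart between the groups and moved with the rRNA-rich libraries. Lars2, which encodes the mitochondrial leucyl-tRNA synthetase, stood at 23.4, 62.9, 47.6 and 51.4 FPKM in labelled knockout and at 13.6, 19.3, 20.4 and 7.89 FPKM in controls. Mt1, a metallothionein, stood at 578, 1213, 999.5 and 912 FPKM in labelled knockout and at 505, 561, 545 and 371 FPKM in controls. In both genes labelled-knockout replicate 1 was the nearest to the controls and replicates 2 to 4, rich in rRNA reads, were farther. Rpl38, a ribosomal protein gene, stood at 123, 140, 148 and 154 FPKM in labelled knockout and at 102, 100, 90.1 and 114 FPKM in controls. Apoc1, an apolipoprotein gene of phagocytes and astrocytes, stood at 16.1, 20.5, 18.8 and 23.6 FPKM against 6.42, 11.1, 13.8 and 5.46 FPKM. In these 4 genes every labelled-knockout library lay above every control, as in 2.14% of all genes. Limma called none of them with 6 libraries (adjusted p = 0.714 each). The part of rRNA content in these differences was not tested.

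**Figure D5:**
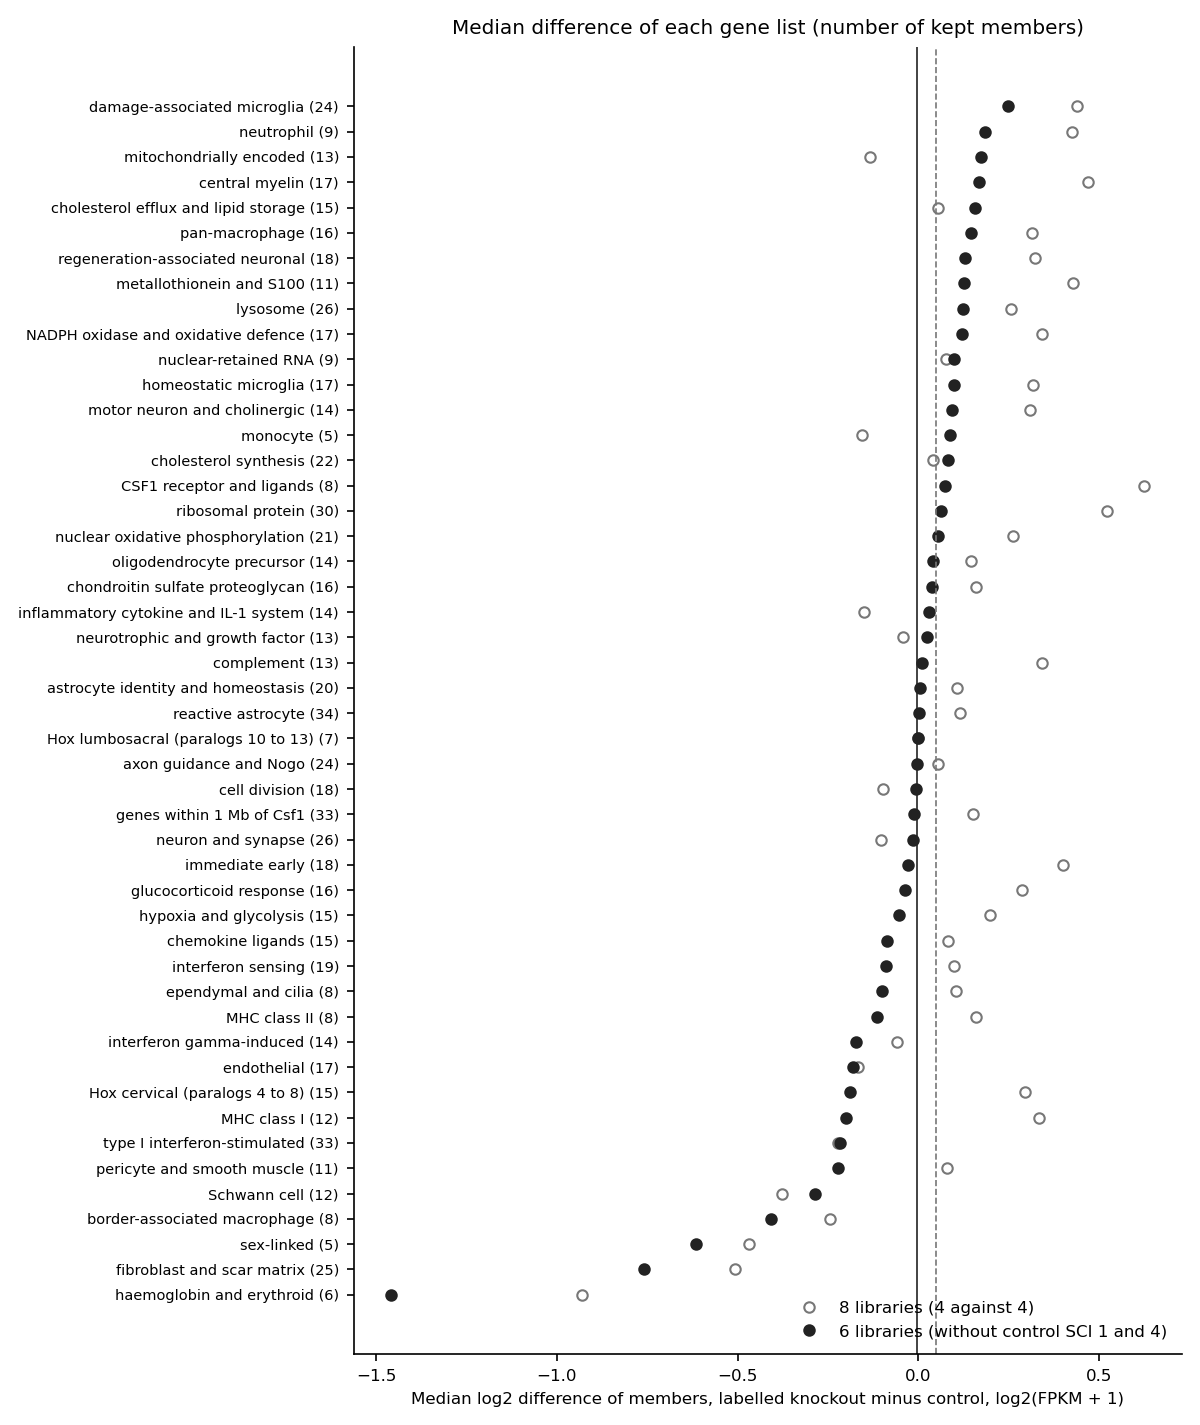
Median log2 difference of the kept members of each gene list with at least 5 of them, with 8 libraries (open) and without control replicates 1 and 4 (filled); vertical lines are the medians over all 15155 genes (0.05 dashed, 0.00 solid). With 6 libraries most medians lie between -0.25 and 0.25, and the erythroid (-1.46) and fibroblast (-0.76) lists lie lowest.

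Genes next to Csf1 were looked at because linked alleles travel with a targeted locus. Of 48 protein-coding genes starting within 1 Mb of Csf1, 33 were kept, 0 were called, 14 lay above and 19 below 0 with 6 libraries (median -0.01), and 20 above and 13 below with 8 (median 0.15). Gstm1, a glutathione transferase and the most abundant of them, stood at 111, 96.5, 113 and 99.1 FPKM in labelled knockout and at 55.9, 86.5, 82.4 and 53.9 FPKM in controls. Every labelled-knockout library lay above every control for Gstm1, as for 2.14% of all genes. Its difference was 0.31 ± 0.09 (SE) with 6 libraries, which was not called. Ahcyl1, another abundant gene there, was at -0.01.

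Whether the genotype difference changed with injury was tested in a fit of all 14 libraries. Limma called 0 genes (0%), and 91 genes (0.6%) reached an unadjusted p under 0.05. The fit holds all 3 control libraries that stand apart, control uninjured replicate 1 among them. Without these 3 limma again called 0 genes, with 2158 at an unadjusted p under 0.05. For Sprr1a the genotype difference was larger in injured than in uninjured cords by 0.98 ± 0.37 (SE, adjusted p = 1), and for Atf3 by 0.52 ± 0.19 (SE, adjusted p = 1). Both genes stayed under 1 FPKM in uninjured cords, where this scale leaves little room for a difference, and both were named after their values were seen. Their contrasts therefore cannot tell whether the genotype difference depends on injury. The interferon-stimulated list had a median of -0.17 in this contrast and 0.03 between the uninjured genotypes. For Csf1 the contrast was 0.33 ± 0.47 (SE, adjusted p = 1).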

How the data were processed

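RNA was measured in 14 mouse spinal cord libraries, and the 8 injured ones were compared. Per the labels' protocols, libraries were poly(A)-selected, not strand-specific, and read in pairs of about 150 bp. Per the submitters' processing notes, CASAVA 1.8 and HISAT2 were used with the mm39 build; the read counter is not given in the sources used here. Values per gene were deposited by the authors as FPKM. Because strand was not kept, antisense genes cannot be separated.

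Multiplying each FPKM by its gene's length and dividing by the library's smallest product gave whole reads for 100% of values, within 0.01. Recovered totals were 15928463 to 21969581 reads per injured library. FPKM totals equalled median-of-ratios size factors (ratio 1). Limma 3.58.1 (R 4.3.3) fitted log2(FPKM + 1), pseudocount 1, with an intensity trend; p-values are two-sided and were adjusted by Benjamini-Hochberg over 15155 genes, with a threshold of 0.05; voom on recovered reads was an alternative. The fit was tested on simulated data. Csf1 was tested by exact permutation.

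The 50 gene lists hold 810 genes; the table has 805 and 692 passed the filter of at least 1 FPKM in at least 3 libraries; 66 are in more than 1 list. Lists, comparison and tests were chosen with earlier results of these data known. Named genes are a fixed set of markers and, for each list, up to 2 members with the highest mean FPKM, as none was called; others were named after their values were seen (Sprr1a, Atf3, Npy, Gal, Ifit3, Oasl2, Fabp5, Apoc1 and others). Promoters come from RefSeq on GRCm38.p6. Replicate numbers were checked for pairing by correlating deviations from group means across genes. Same-numbered libraries gave -0.34, -0.34, -0.08 and 0.05, and differently numbered libraries gave -0.31 to 0.38. Same-numbered libraries were thus not the most alike. The control mean includes the libraries that stand apart, so this check cannot tell whether the numbers pair samples. The sex term and the males-only comparison were added after seeing the data.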

Additional observations from a re-analysis of the deposited data

Results flagged for a closer look

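In 138 groups of 4 libraries the highest or lowest value was compared with the others by Dixon's gap test at its 95% level, which chance passes in about 1 in 20 groups; 6 groups passed. Labelled-knockout replicate 1 was far above replicates 2 to 4 for the collagen genes Col1a1, at 129.8 FPKM against 36.6 to 48.9, and Col1a2, at 61.91 FPKM against 21.6 to 23.9. The same replicate had a score of 2.6 on the type I interferon-stimulated list against 2.30 to 2.34. It is the labelled-knockout library that is not rich in rRNA reads, with 0.423% of reads on rRNA genes. Among controls, Cthrc1, a secreted protein of scar fibroblasts, stood at 16.45 FPKM in control SCI replicate 3 against 9.73 to 10.3, and Clec7a, a pattern receptor of phagocytes, at 54.86 FPKM in control SCI replicate 4 against 18.6 to 22.5. The small nucleolar RNA gene Snord71 stood at 1.01 FPKM in control SCI replicate 2 and at 0 in the other controls.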

How the results depend on the processing

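The count of called genes was 0 in most settings. With all 8 libraries, limma called 4 genes with library weights and 3 with no filter on low values, 0 of which were among the genes kept; the replicate block, voom, a pseudocount of 0.1, a filter of at least 5 FPKM, quantile and median scaling, a sex term, the spread of all 14 libraries and leaving out each library gave 0. Without control SCI replicates 1 and 4, limma called 48 genes with no filter on low values, 2 of them among those kept. It called 51 with a replicate block over replicates 2 and 3. Of these, 9 were higher and 42 lower in labelled knockout, Ogn among the lower. That block compares only 2 libraries of each group, and whether the numbers pair the samples is not known. Leaving out single libraries there gave 0 to 4, the 4 (Tcp11l1, Gm22009, Rn18s-rs5 and 9630013A20Rik) being called without labelled-knockout replicate 1, which leaves only rRNA-rich libraries in that group; the part of rRNA content was not tested. The genotype by injury contrast gave 0 in each of its alternatives, the replicate block included, and 2158 genes at an unadjusted p under 0.05 without the 3 control libraries that stand apart. Csf1 in injured cords was above 0 in all its 8-library alternatives, 0.28 to 0.65 leaving out single libraries, and 0.04 without both control replicates, where it was -0.04 with the replicate block and 0.00 to 0.14 in the other alternatives. Over 19 alternatives the interferon-stimulated median ran from -0.32 to 0.00 with 8 libraries, turning sign with the 5 FPKM filter, and over 16 from -0.38 to -0.06 with 6; the fibroblast median ran from -0.79 to 0.16 and from -1.29 to -0.07. Among 133 named genes 49 changed sign with library weights, 22 without the 3 rRNA-rich libraries and at most 16 in each other 8-library setting; with 6 libraries 30 did without the rRNA-rich libraries, 20 without control SCI replicate 3, 17 among males only and with a sex term, and at most 16 in each other setting. Depth was at least 15928463 reads per injured library, and the median interval half-width was 0.52 with 8 libraries and 0.25 with 6.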
